A study of Mus musculus with 6 samples.

Results

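The genes described here are the chemokines Cxcl1, Cxcl2, Cxcl3 and Cxcl5, the platelet chemokines Ppbp and Pf4, and Cxcr2, a receptor for chemokines of this class. They were taken by symbol from the deposited expression table, which held 25572 genes, and all 7 were found there. All 7 also averaged 0.5 FPKM or more across the 6 libraries, the condition that 13288 genes met and under which a gene was tested. FPKM counts sequenced fragments relative to the length of the gene and the depth of the library, so levels of different genes can be set side by side.

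Chemokines are small secreted proteins that draw leukocytes along a gradient. CXC chemokines that carry the motif Glu-Leu-Arg (ELR) ahead of their first cysteines, among them the products of Cxcl1, Cxcl2, Cxcl3, Cxcl5 and the processed product of Ppbp, bind CXCR2, a G protein-coupled receptor of neutrophils, and bring these cells out of the blood into injured tissue. The product of Pf4, platelet factor 4, lacks that motif and is stored in platelet granules with the product of Ppbp; macrophages also transcribe Pf4. In injured muscle, neutrophils arrive first and monocytes and macrophages follow.

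Total RNA was sequenced from hind limb skeletal muscle of 3 mice labelled as lacking histidine decarboxylase (HDCKO, genotype Hdc-/-) and of 3 wild types (WT), with a library for each mouse. All were sampled 3 days after surgery for hind limb ischaemia (HLI), which interrupts blood flow to the limb, and no group without surgery is among the samples used here. The sources used here do not state age, strain, sex, which part of Hdc is deleted, or which leg and muscle were taken. Hdc, which encodes the enzyme that makes histamine, had 1.22, 2.46 and 2.52 FPKM in HDCKO libraries and 7.49, 7.72 and 8.17 FPKM in WT libraries. The groups did not overlap, and HDCKO held 26.5% of the WT mean (log2 change -1.74, SE 0.25, limma adjusted p = 0.0033).

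The tissue in the libraries differed between the genotypes well beyond these genes. The 12 skeletal muscle fibre markers were all detected and all rose, with a summed level of 46298 to 84669 FPKM in HDCKO and 404 to 1578 FPKM in WT. Of the 13288 genes tested, 5658 were lower and 2362 higher in HDCKO (limma, adjusted p under 0.05), which is 42.6% and 17.8% of the genes tested, and their median log2 change was -0.50. With median-of-ratios scaling 3457 were lower and 3532 higher (median -0.03), and with quantile normalization 4020 and 3134 (median -0.12). Leaving muscle fibre and mitochondrial genes out of the library sum gave 2846 lower and 3772 higher (median -0.04). In bulk muscle, fewer cells of a type and less RNA per cell cannot be told apart.

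The 6 chemokine genes lie in 1 cluster of 146.6 kb on chromosome 5, positions 90907186 to 91053797 in GRCm39, all on the plus strand. From the low end the order is Cxcl5 (90907186 to 90909483), Ppbp (90916371 to 90917930), Pf4 (90918479 to 90922110), Cxcl3 (90933962 to 90937459), Cxcl1 (91039094 to 91040974) and Cxcl2 (91051730 to 91053797). Cxcr2 is on chromosome 1, positions 74193150 to 74200405, plus strand. All are annotated as protein-coding. The span of the antisense lncRNA Gm72413 overlaps Cxcl5 in GENCODE, and no source used here states whether counting used strand. Reads of Cxcl5 and of Gm72413 thus cannot be told apart wherever their exons overlap, which was not checked.

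The promoters are shown because all these neighbouring genes were lower in HDCKO. RefSeq promoter sequences of build GRCm38.p6 were matched for 6 of the 7 genes (all but Cxcl5). The stretches below are the last 120 bases before the annotated start, plus strand, 5′ to 3′, at chr5:90891125-90891244 (Cxcl1), chr5:90903779-90903898 (Cxcl2), chr5:90785981-90786100 (Cxcl3), chr5:90768398-90768517 (Ppbp) and chr5:90772315-90772434 (Pf4). Capitals mark every match, on either strand, to 3 motifs chosen after the sequences were read: GGGAATTTCC, a known binding sequence of NF-kappaB; ATAAAA, part of the TATA box; and GGAAGT, a core of ETS factor sites (read here as ACTTCC on the other strand). No match overlapped another.
Cxcl1: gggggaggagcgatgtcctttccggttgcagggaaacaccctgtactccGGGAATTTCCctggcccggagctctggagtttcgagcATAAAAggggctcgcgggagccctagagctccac
Cxcl2: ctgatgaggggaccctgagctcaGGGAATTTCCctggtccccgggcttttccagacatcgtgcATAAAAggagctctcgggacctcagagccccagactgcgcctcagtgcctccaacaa
Cxcl3: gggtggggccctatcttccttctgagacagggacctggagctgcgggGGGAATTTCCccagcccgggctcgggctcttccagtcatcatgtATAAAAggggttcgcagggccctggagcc
Ppbp: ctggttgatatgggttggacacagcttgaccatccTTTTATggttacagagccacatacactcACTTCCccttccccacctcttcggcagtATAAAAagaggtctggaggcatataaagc
Pf4: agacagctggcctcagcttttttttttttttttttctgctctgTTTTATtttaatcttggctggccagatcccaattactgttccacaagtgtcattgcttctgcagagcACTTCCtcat
GGGAATTTCC stood on the plus strand of the Cxcl1, Cxcl2 and Cxcl3 promoters, with its first base 71, 97 and 73 bases before the start. This sequence was cut from the longest run of bases shared by the Cxcl1, Cxcl2 and Cxcl3 promoters. Its presence in these 3 was thus fixed by the choice, and its rarity elsewhere does not test it. It was in 0.0883% of the 32851 mouse promoters searched (29 promoters in all). A match to ATAAAA on the plus strand followed at 34, 57 and 29 bases before the start in the same 3 promoters and at 29 bases in Ppbp; on either strand 18.5% of all promoters hold it. The promoters of Ppbp and Pf4 held ACTTCC from 57 and 10 bases before the start, and the Cxcr2 promoter, not printed, held it from 24 bases before; 23.8% of all promoters hold this motif or its complement. Such matches describe letters only and are not measured binding.

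All 7 genes were lower in HDCKO muscle. Each passed the test, and for each the 3 HDCKO libraries lay below the 3 WT libraries; among all genes tested, 42.6% were called lower and 51.4% had all HDCKO libraries below all WT libraries. Cxcl2 and Cxcl3 averaged 0.291 and 0.360 FPKM in HDCKO and so passed the filter only through their WT levels, which favours a call of lower. Without the filter all 7 were also called lower. The 4 neutrophil-recruiting ligands and Ppbp were at 0.0994% to 0.574% of their WT means, Cxcr2 at 1.32% and Pf4 at 6.55%. The plot of levels by library shows every value.

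**Figure D1:**
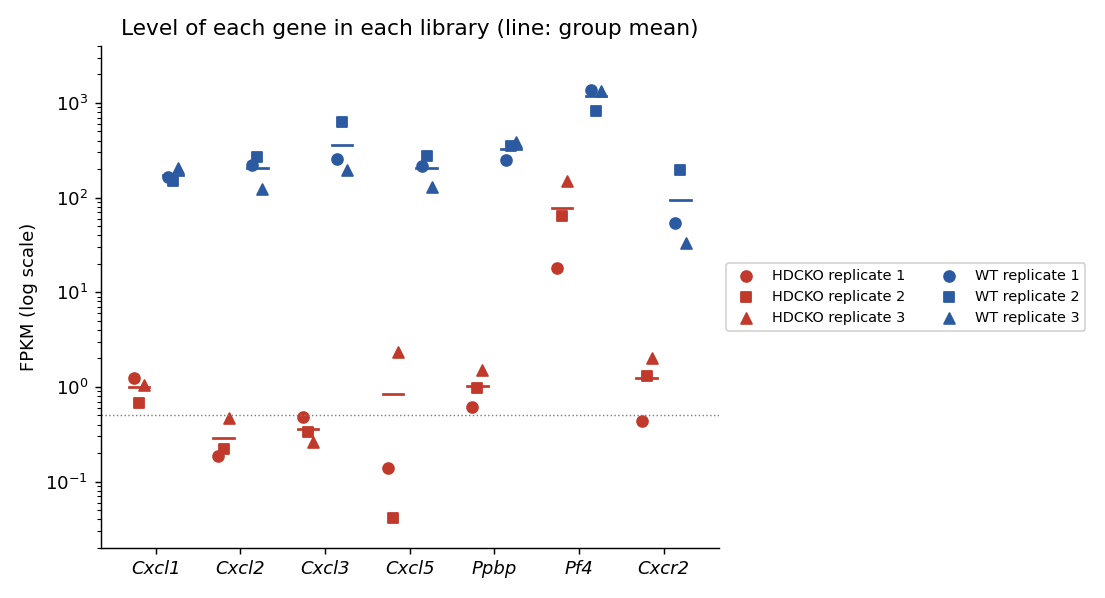
FPKM (log axis) of the 7 genes in each of the 6 libraries; symbols give the mouse, short lines the group mean of 3 libraries, and the dotted line 0.5 FPKM. In HDCKO every gene but Pf4 sits between 0.0409 and 2.36 FPKM, while in WT all 7 sit between 33.1 and 1382 FPKM.

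Cxcl1, known in mouse as KC, is made by macrophages, endothelium and fibroblasts after inflammatory signals. Its level was 1.25, 0.674 and 1.06 FPKM in HDCKO mice 1, 2 and 3, and 163, 148 and 207 FPKM in WT mice 1, 2 and 3. These are means of 0.993 ± 0.292 in HDCKO and 173 ± 30.6 FPKM in WT (± is SD, n = 3 each). Cxcl1 was the steadiest of the 7 genes in both groups, with an SD of 29.4% of the mean in HDCKO and 17.7% in WT. It fell by 6.87 on the log2(FPKM + 0.5) scale, on which all log2 changes here are given (SE 0.21, limma adjusted p = 1.1e-04).

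Cxcl2, also called macrophage inflammatory protein 2, is a ligand that activated macrophages release early in injury. It had 0.188, 0.219 and 0.466 FPKM in HDCKO mice 1, 2 and 3, against 221, 268 and 123 FPKM in WT mice 1, 2 and 3. The WT mouse with the lowest Cxcl2, mouse 3, was the one with the highest Cxcl1. Cxcl2 averaged 0.291 ± 0.152 FPKM in HDCKO and 203.8 ± 74.0 FPKM in WT (± is SD, n = 3 each), and fell by 7.96 (SE 0.32, limma adjusted p = 1.5e-04).

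Cxcl3, a close relative of Cxcl1 and Cxcl2, had the most negative log2 change of all genes tested. The HDCKO mice held 0.485, 0.333 and 0.261 FPKM and the WT mice 259, 631 and 196 FPKM, in the order 1, 2 and 3. WT mouse 2 stood above the other WT libraries. Means were 0.360 ± 0.115 FPKM in HDCKO and 362 ± 235 FPKM in WT (± is SD, n = 3 each), and the log2 change was -8.54 (SE 0.43, limma adjusted p = 1.7e-04). Cxcl1, Cxcl2 and Cxcl3 resemble each other in sequence and no source used here states what was done with reads that match several of them, so the split among these 3 genes is uncertain.

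Cxcl5, an ELR chemokine made mainly by epithelial and other tissue cells, had the largest SD relative to its mean among HDCKO libraries, 155% of the mean. HDCKO mice 1, 2 and 3 had 0.140, 0.0409 and 2.36 FPKM, and WT mice 1, 2 and 3 had 215, 278 and 131 FPKM. HDCKO mouse 3 was far above the other HDCKO libraries, yet far below every WT library. Cxcl5 averaged 0.847 ± 1.31 FPKM in HDCKO and 207.7 ± 73.8 FPKM in WT (± is SD, n = 3 each). It fell by 7.64 (SE 0.67, limma adjusted p = 6.5e-04), and fell by 8.40 without HDCKO mouse 3 (adjusted p = 1.7e-04).

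Ppbp, the precursor that platelet proteases and neutrophil proteases trim to a CXCR2 ligand, had 0.617, 0.970 and 1.497 FPKM in HDCKO mice 1, 2 and 3. WT mice 1, 2 and 3 had 247, 354 and 388 FPKM. The WT libraries spread little, with an SD of 22.4% of the mean. Ppbp averaged 1.03 ± 0.443 FPKM in HDCKO and 329.8 ± 73.8 FPKM in WT (± is SD, n = 3 each), a log2 change of -7.77 (SE 0.28, limma adjusted p = 1.3e-04).

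Pf4 had the highest deposited FPKM of the 7 genes in every library. It had 18.2, 63.6 and 149 FPKM in HDCKO mice 1, 2 and 3, against 1382, 813 and 1334 FPKM in WT mice 1, 2 and 3. The HDCKO libraries spread widely, and the highest of them was still well below the lowest WT library. Pf4 averaged 77.0 ± 66.5 FPKM in HDCKO and 1176 ± 315 FPKM in WT (± is SD, n = 3 each) and fell by 4.34 (SE 0.74, limma adjusted p = 0.0057). It fell by 3.55 without HDCKO mouse 1 and by 5.05 without HDCKO mouse 3. The step between its FPKM values does not match its canonical transcript length, so its level beside other genes is uncertain. On that length, an alternative chosen after seeing the data, Pf4 would be at 6.35, 22.2 and 52.0 FPKM in HDCKO mice 1, 2 and 3 and at 482, 283 and 465 FPKM in WT mice 1, 2 and 3, which puts Pf4 below Cxcl3 and Ppbp in WT mouse 2.

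Cxcr2, the receptor that neutrophils use to follow these ligands, had 0.438, 1.30 and 2.00 FPKM in HDCKO mice 1, 2 and 3. In WT mice 1, 2 and 3 it had 53.2, 197 and 33.1 FPKM. WT mouse 2 was again the highest, as for Cxcl2, Cxcl3 and Cxcl5. Means were 1.25 ± 0.783 FPKM in HDCKO and 94.4 ± 89.2 FPKM in WT (± is SD, n = 3 each). Cxcr2 fell by 5.45 (SE 0.71, limma adjusted p = 0.0025), and fell by 4.72 without WT mouse 2.

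**Figure D2:**
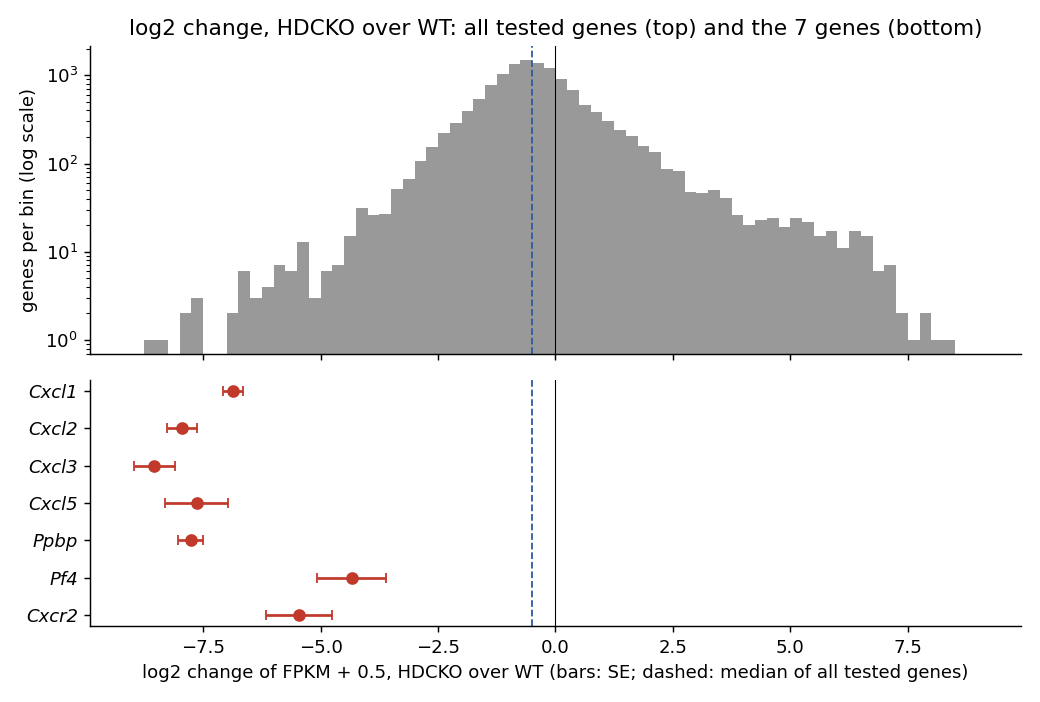
Log2 change of FPKM + 0.5, HDCKO over WT: above, the number of genes per bin for all 13288 genes tested (log axis); below, the 7 genes with bars of 1 SE. The dashed line marks the median of all genes, -0.50; Cxcl1, Cxcl2, Cxcl3, Cxcl5 and Ppbp lie at -6.87 or below, Cxcr2 at -5.45 and Pf4 at -4.34.

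Ranked from the most negative log2 change of the 13288 genes, Cxcl3 was at place 1, Cxcl2 at 3, Ppbp at 4, Cxcl5 at 6 and Cxcl1 at 9. Cxcr2 was at place 36 and Pf4 at 73. The 0.5 FPKM added before logs limits how far a low-level gene can fall, so these places also depend on WT level. No place was tested against the next.

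The HDCKO values rest on few fragments. Low FPKM values are whole multiples of what 1 fragment is worth, and for Cxcr2 and the chemokines other than Pf4 all 36 values came out as whole fragments, the farthest 1.4e-04 of a fragment off. With the canonical transcript lengths these steps give a depth of 29500000 to 37600000 fragments per library (medians over the 6 genes). Cxcl2 rested on 7, 7 and 19 fragments in HDCKO mice 1, 2 and 3, against 7640, 10757 and 4927 in WT mice 1, 2 and 3. Cxcl5 rested on 8, 2 and 147 fragments in HDCKO, against 11355, 17060 and 8022 in WT, in the order of mice. The 2 fragments of Cxcl5 in HDCKO mouse 2 have an exact 95% Poisson interval of 0.242 to 7.22, which covers counting error only. For the other genes the HDCKO libraries held 10 to 17 fragments of Cxcl3, 19 to 41 of Cxcl1, 23 to 61 of Ppbp and 47 to 235 of Cxcr2, while no WT library held fewer than 3836 fragments of any of these 6 genes. Because 0.5 FPKM was added before logs were taken, the log2 changes understate the ratio of levels of all genes that are low in HDCKO. Among the 7 genes these are the 6 other than Pf4.

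Among the 4 neutrophil-recruiting ligands, the summed level was 2.06, 1.27 and 4.14 FPKM in HDCKO mice 1, 2 and 3. It was 858, 1325 and 657 FPKM in WT mice 1, 2 and 3. The sum averaged 2.49 ± 1.49 FPKM in HDCKO and 946 ± 343 FPKM in WT (± is SD, n = 3 each), a difference of -8.36 on the log2(FPKM + 0.5) scale. An exact two-sided permutation test over the 6 libraries gave p = 0.1, the smallest possible with 3 against 3. The 4 ligands took up 0.000280% to 0.000977% of all FPKM in HDCKO libraries and 0.162% to 0.315% in WT libraries.

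The share of each ligand in this sum was compared within libraries. Cxcl3 made up 23.5%, 26.3% and 6.30% of the summed level in HDCKO mice 1, 2 and 3, and 30.2%, 47.6% and 29.8% in WT mice 1, 2 and 3; the groups did not overlap (exact two-sided permutation p = 0.1, the smallest possible). Cxcl2 made up 9.11%, 17.3% and 11.3% in HDCKO and 25.8%, 20.2% and 18.7% in WT, again without overlap (exact permutation p = 0.1). The share of Cxcl1 was 60.5%, 53.2% and 25.5% in HDCKO and 19.1%, 11.2% and 31.6% in WT, which overlap (exact permutation p = 0.2). Cxcl5 made up 56.9% in HDCKO mouse 3, but 6.81% and 3.23% in HDCKO mice 1 and 2, and 19.9% to 25.04% in WT libraries (exact permutation p = 1). Cxcl1 was thus the most abundant of the 4 in HDCKO mice 1 and 2 and Cxcl5 in HDCKO mouse 3, whereas Cxcl3 led in WT mice 1 and 2 and Cxcl1 in WT mouse 3. With so few fragments in HDCKO, these shares carry a wide counting error.

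**Figure D3:**
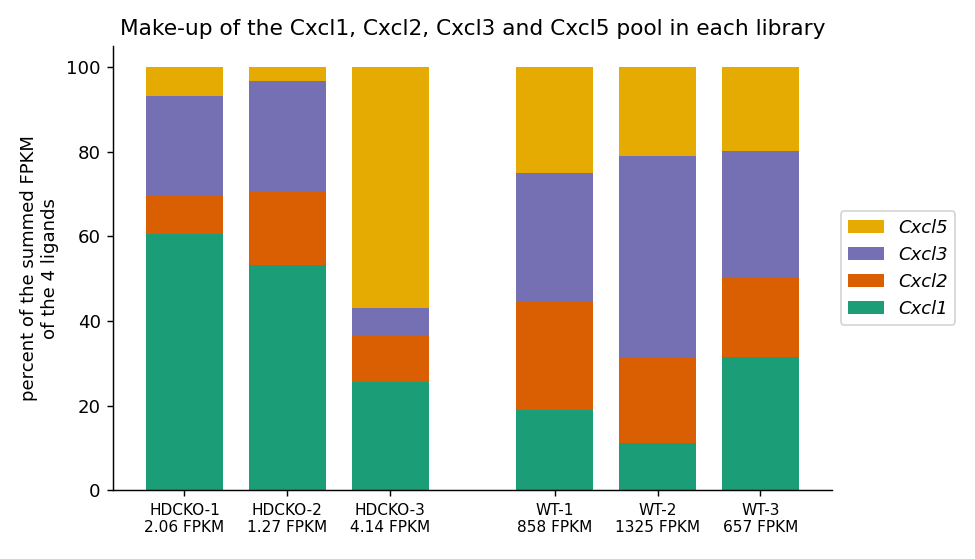
Percent of the summed FPKM of Cxcl1, Cxcl2, Cxcl3 and Cxcl5 that each gene makes up, 1 bar per library, with the summed FPKM under each bar. Cxcl3 spans 6.30% to 26.3% in HDCKO and 29.8% to 47.6% in WT, and the Cxcl5 share of 56.9% belongs to HDCKO mouse 3.

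On the deposited FPKM, the order of mean levels in HDCKO was Pf4, Cxcr2, Ppbp, Cxcl1, Cxcl5, Cxcl3 and Cxcl2. Pf4 stood apart, its lowest HDCKO value of 18.2 FPKM being above the 2.36 FPKM of Cxcl5 in mouse 3, and each of the other 6 genes overlapped in range with the next in order. In WT the order was Pf4, Cxcl3, Ppbp, Cxcl5, Cxcl2, Cxcl1 and Cxcr2. Each of the 6 genes other than Pf4 again overlapped with the next. On the canonical transcript length, Pf4 would keep the highest WT mean but lie below Cxcl3 and Ppbp in WT mouse 2, as given above.

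Ratios within a library were used to ask whether the genes changed to different extents. The comparison covered 35 ratios, each as a difference of log2(FPKM + 0.5) values, with exact two-sided permutation tests that cannot go below p = 0.1; adjusted p-values over the 35 ran from 0.146 to 1, so no ratio passed 0.05. Pf4 was compared first. The log2 ratio of Cxcl3 to Pf4 was -6.04 ± 1.70 in HDCKO and -1.85 ± 1.30 in WT, and that of Cxcl1 to Pf4 was -5.26 ± 1.64 in HDCKO and -2.74 ± 0.32 in WT (± is SD, n = 3 each). For each of the 5 other chemokines the ratio to Pf4 was lower in all HDCKO libraries than in all WT libraries, with differences from -4.20 for Cxcl3 to -2.52 for Cxcl1 (exact permutation p = 0.1 each, adjusted p = 0.146). With 1 library left out or another pseudocount, the Cxcl3 difference ran from -5.10 (pseudocount 0.1) to -3.41 (without HDCKO mouse 3) and the Cxcl1 difference from -3.44 (without HDCKO mouse 1) to -1.86 (without HDCKO mouse 3). Cxcl2, Cxcl3, Cxcl5 and Ppbp also had lower ratios to Cxcr2 without overlap, with differences of -2.50, -3.08, -2.18 and -2.32 (exact permutation p = 0.1 each, adjusted p = 0.146), while the ratios of Cxcl1 and Pf4 to Cxcr2 overlapped between the groups (differences -1.41 and 1.11, exact permutation p = 0.2 and 0.5). Without WT mouse 2 these became -2.25 and 0.13, and without WT mouse 3 they became -0.74 and 1.76. Cxcl1 was higher relative to Cxcl3 in every HDCKO library (0.79 ± 0.27 in HDCKO and -0.89 ± 1.10 in WT, ± SD with n = 3 each; exact permutation p = 0.1), a difference of 1.67 that was 1.08 without WT mouse 2. The ratio of Cxcl2 to Ppbp differed by -0.19, with overlapping groups, and its sign turned with a pseudocount of 1.

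All 17 tested of 20 listed neutrophil markers were lower in HDCKO, beside 42.6% of all genes, with a median log2 change of -5.29 against -0.50 for all genes. Several, such as Trem1, passed the filter only through their WT levels, which favours a call of lower. Without the filter 18 of the 20 were lower. The summed level of the 20 markers was 39.9 to 94.2 FPKM in HDCKO and 2726 to 15126 FPKM in WT. The 4 with the smallest p were the receptor Trem1 (0.0831 ± 0.0836 FPKM in HDCKO and 24.3 ± 13.2 in WT), the formyl peptide receptor Fpr1 (0.381 ± 0.435 in HDCKO and 52.0 ± 23.9 in WT), the lectin Clec4e (0.622 ± 0.888 in HDCKO and 59.7 ± 21.9 in WT) and S100a9, a calcium-binding protein of neutrophil cytosol (22.5 ± 7.67 in HDCKO and 3021 ± 2758 in WT; ± is SD, n = 3 each). Ltf, Mpo and Elane were under the filter. The marker mean of log2 values was 0.04, 0.75 and 0.89 in HDCKO mice 1, 2 and 3 and 4.18, 5.43 and 3.92 in WT mice 1, 2 and 3, so WT mouse 2 was the highest in these markers as it was in Cxcr2. The platelet, endothelial and signalling means were highest in WT mouse 2 as well. Relative to the mean of all 20 neutrophil markers, Cxcr2 was at 0.13 ± 0.28 in HDCKO and 1.64 ± 0.53 in WT (log2 ratio, SD, n = 3 each), without overlap (exact permutation p = 0.1). That mean includes the 3 markers under the filter and others at low levels, whose fall the added 0.5 FPKM shrinks. The log2 change of Cxcr2, -5.45, was near the median of -5.29 of the 17 tested markers. The part of neutrophil transcripts in the change of Cxcr2 was not tested.

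Of 18 macrophage and monocyte markers, all tested, 10 were lower in HDCKO, beside 42.6% of all genes (median log2 change -2.37, against -0.50 for all genes), led by the lipopolysaccharide co-receptor Cd14 (9.85 ± 7.91 FPKM in HDCKO and 173 ± 41.9 in WT), the integrin Itgam (11.996 ± 12.2 in HDCKO and 189 ± 53.0 in WT), the clearance receptor Mertk (1.84 ± 0.879 in HDCKO and 5.46 ± 0.595 in WT) and the monocyte chemokine receptor Ccr2 (8.45 ± 11.5 in HDCKO and 86.6 ± 25.5 in WT; ± is SD, n = 3 each). Leaving out HDCKO mouse 2 made this 4, WT mouse 1 also 4, WT mouse 2 made it 6 and WT mouse 3 made it 3; without the filter on low values it was 5. Ccr2 no longer passed without HDCKO mouse 2 (adjusted p = 0.0534) or WT mouse 3 (adjusted p = 0.0506). The 8 markers that did not pass had log2 changes from -2.58 for Trem2 to 0.74 for Cx3cr1. Among them, C1qa, C1qb and C1qc were at -0.06, -0.32 and -0.18. The mean log2 level of the 18 markers was 2.60, 4.01 and 5.67 in HDCKO mice 1, 2 and 3, and 6.53, 5.96 and 6.56 in WT mice 1, 2 and 3. Pf4 shares its order among the HDCKO libraries, and its low in WT mouse 2, with this mean, but neither is particular to it: the means of every other list but the muscle fibre markers have the same order over the HDCKO libraries, and the fibroblast mean is also lowest in WT mouse 2. Their summed level was 343 to 2850 FPKM in HDCKO and 3950 to 5099 FPKM in WT. Their part in the change of Pf4 was not tested.

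Among platelet and megakaryocyte markers, Gp1ba, Gp1bb, Gp9, Gp5, Gp6, Treml1 and Tubb1 were under the filter, and none of them went above 0.133 FPKM in HDCKO or 1.26 FPKM in WT. Gp9 and Itga2b were chosen after their values were seen. Gp9, a subunit of the platelet receptor for von Willebrand factor, had 0.0101 to 0.0554 FPKM in HDCKO and 0.0955 to 0.576 FPKM in WT, and the platelet integrin Itga2b had 0.321 to 1.41 FPKM in HDCKO and 2.08 to 3.92 FPKM in WT. In the same WT libraries Ppbp had 247 to 388 FPKM and Pf4 813 to 1382 FPKM. Of the 12 platelet markers tested, 7 were lower in HDCKO (58.3%, beside 42.6% of all genes; median log2 change -1.41), led by P-selectin, Selp (3.56 ± 0.733 FPKM in HDCKO and 29.0 ± 6.10 in WT), Thbs1 (20.9 ± 14.3 in HDCKO and 412 ± 228 in WT), Nrgn (1.14 ± 0.622 in HDCKO and 6.88 ± 3.73 in WT) and F2rl2 (0.0340 ± 0.0270 in HDCKO and 1.15 ± 0.768 in WT; ± is SD, n = 3 each). Endothelium also transcribes Selp, and several cell types transcribe Thbs1. F2rl2 and Clec1b passed the filter only through their WT levels, which favours a call of lower. The count of 7 ran from 5 (filter of 1 FPKM, median-of-ratios scaling or without WT mouse 2) to 10 (without HDCKO mouse 3). The 5 tested markers that did not pass were Rgs18, P2ry12, Mmrn1, P2rx1 and Alox12, with log2 changes of -1.38, -1.20, -0.13, -0.01 and 0.17. The log2 ratio of Ppbp to the mean of the listed platelet markers was 0.36 ± 0.19 in HDCKO and 7.04 ± 0.33 in WT (± is SD, n = 3 each; exact permutation p = 0.1). That mean includes the platelet markers under the filter and others at low levels, whose fall the added 0.5 FPKM shrinks. The part of platelet RNA in the levels of Ppbp and Pf4 was not tested.

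**Figure D4:**
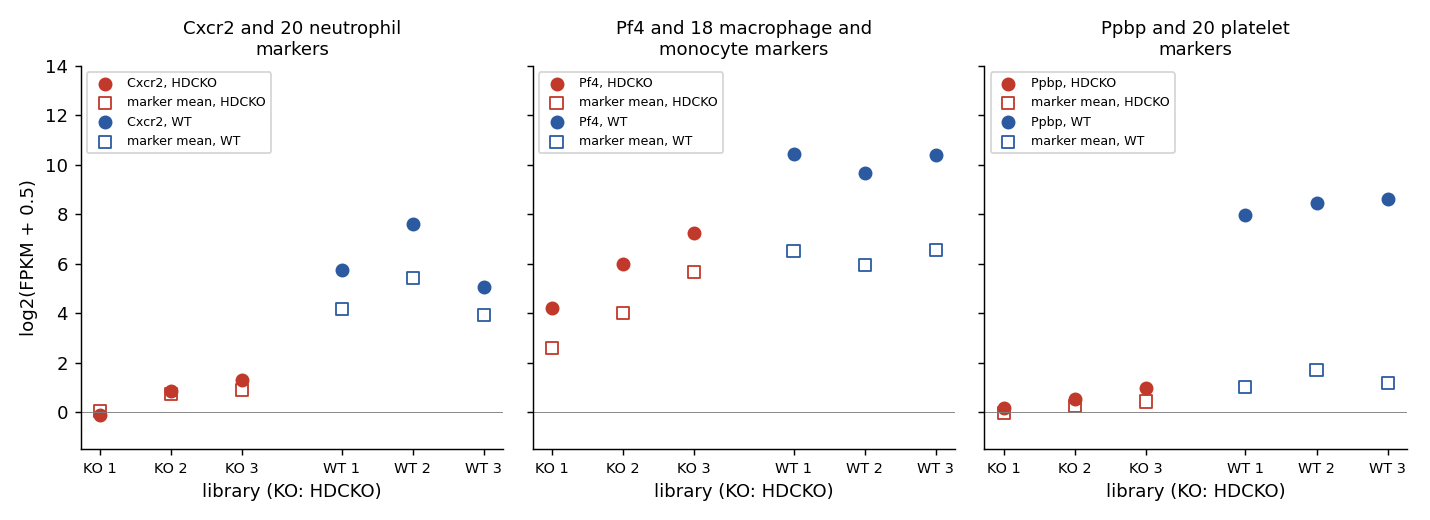
Log2(FPKM + 0.5) in each library of Cxcr2, Pf4 and Ppbp (filled circles) beside the mean log2 level of neutrophil, macrophage and platelet markers (open squares). Cxcr2 and the neutrophil mean are both highest in WT mouse 2, all 6 values of HDCKO mouse 1 are the lowest of the HDCKO libraries, and Ppbp lies on average 7.04 above the platelet mean in WT.

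Endothelium and fibroblasts can also make the ligands. Of 12 endothelial markers 6 were lower (50%) and 1, the phosphatase Ptprb, higher, beside 42.6% and 17.8% of all genes. Their median log2 change of -0.55 was near the -0.50 of all genes. The lower count was 3 without WT mouse 1 and 3 without WT mouse 2. Besides Ptprb (17.2 ± 2.16 FPKM in HDCKO and 7.27 ± 0.746 in WT), Emcn (17.98 ± 3.03 in HDCKO and 80.9 ± 25.3 in WT), Egfl7 (29.6 ± 3.90 in HDCKO and 88.4 ± 18.5 in WT) and Plvap (38.6 ± 12.5 in HDCKO and 148.8 ± 28.9 in WT; ± is SD, n = 3 each) had the smallest p. Of 10 fibroblast markers 2 were lower, Pdgfra (11.3 ± 4.35 FPKM in HDCKO and 48.0 ± 6.18 in WT) and the collagen Col3a1 (452 ± 286 FPKM in HDCKO and 1808 ± 702 in WT), beside 42.6% of all genes; the count was 1 without HDCKO mouse 2, WT mouse 1 or WT mouse 3, where Col3a1 no longer passed (adjusted p from 0.0662 to 0.0695), 4 without WT mouse 2 and 8 with sample weights. Dcn (log2 change -0.65, limma adjusted p = 0.0778) and Col1a1 (-1.11, limma adjusted p = 0.0898) did not pass, though Col1a1 did with the mouse number as a replicate block (adjusted p = 0.0327), with sample weights (adjusted p = 4.2e-04) and without WT mouse 2 (adjusted p = 0.0226), and Dcn did with sample weights (adjusted p = 0.0128).

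Of 18 tested genes that induce the ligands or act on their RNA, 16 were lower and 0 higher, beside 42.6% and 17.8% of all genes, with a median log2 change of -1.58. Il1b, the cytokine that induces these chemokines in many cells, had 1.09 ± 1.13 FPKM in HDCKO and 114.6 ± 33.9 FPKM in WT (a log2 change of -6.35). Nfkbiz, an NF-kappaB cofactor, had 2.27 ± 1.07 FPKM in HDCKO and 23.7 ± 3.94 FPKM in WT (-3.18). Zc3h12a, which encodes an RNase that limits inflammatory mRNAs, fell as well (2.74 ± 0.656 FPKM in HDCKO and 17.9 ± 4.43 in WT, -2.51), as did the interleukin 1 receptor Il1r1 (6.84 ± 3.32 FPKM in HDCKO and 51.7 ± 6.21 in WT, -2.93; ± is SD, n = 3 each). Limma adjusted p-values of these 4 genes ran from 4.7e-04 to 0.0019. Il1a, Il17a and Il17f were under the filter, and Il17a was listed at 0 in all HDCKO libraries.

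Genes of signalling below CXCR2 (G protein subunits, kinases, Rac exchange factors and arrestins) were lower in 20 of 27 cases and higher in 1, beside 42.6% and 17.8% of all genes, with a median log2 change of -1.69. Many of these genes act in most cells. The 4 with the smallest p were the G protein subunit Gng12 (12.9 ± 3.34 FPKM in HDCKO and 37.2 ± 2.28 in WT), the arrestin Arrb1 (6.84 ± 2.46 in HDCKO and 30.7 ± 4.63 in WT), the phospholipase Plcb3 (8.19 ± 2.44 in HDCKO and 20.2 ± 0.851 in WT) and the myeloid kinase Fgr (1.68 ± 2.01 in HDCKO and 28.0 ± 15.0 in WT; ± is SD, n = 3 each). Grk3, a receptor kinase outside the rule for named genes and chosen after its values were seen, was the 1 that rose (1.89 ± 0.443 FPKM in HDCKO and 0.716 ± 0.156 in WT). The 20 became 9 without HDCKO mouse 2, 12 without WT mouse 1 and 11 without WT mouse 2 or 3.

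Of 6 tested CXC chemokines outside the 7 genes, 2 were lower (33.3%, beside 42.6% of all genes). These were Cxcl14 (56.1 ± 7.42 FPKM in HDCKO and 325 ± 196 in WT, a log2 change of -2.37, limma adjusted p = 0.0057) and Cxcl12 (30.3 ± 4.53 in HDCKO and 74.5 ± 28.6 in WT, -1.22, limma adjusted p = 0.0158); Cxcl12 was lost under median-of-ratios scaling (adjusted p = 0.0869), without HDCKO mouse 2 (adjusted p = 0.0588) or without WT mouse 3 (adjusted p = 0.0510). Cxcl16 (log2 change -0.92, limma adjusted p = 0.293) and Cxcl13 (-1.70, limma adjusted p = 0.327) did not pass, though Cxcl16 did with sample weights (-1.22, adjusted p = 0.0082). Cxcl11 was not matched in the table. Of 7 other receptors, 3 were lower (42.9%, a share near the 42.6% of all genes): the decoy receptor Ackr3 (23.6 ± 3.77 FPKM in HDCKO and 90.8 ± 25.03 in WT, a log2 change of -1.90), Cxcr1, the closest relative of Cxcr2 (0.0239 ± 0.0232 in HDCKO and 5.21 ± 6.37 in WT, -2.85, limma adjusted p = 0.0185), and Ackr1, an endothelial receptor that carries chemokines across vessels (9.50 ± 2.73 in HDCKO and 15.8 ± 0.496 in WT, -0.74). Ackr1 was lost under median-of-ratios scaling (adjusted p = 0.376), quantile normalization (adjusted p = 0.259) or without any 1 WT mouse (adjusted p from 0.0756 to 0.0860), and Cxcr1 was lost without HDCKO mouse 2 (adjusted p = 0.0614). Cxcr5, a receptor of B cells and follicular T cells, had a log2 change of 2.16 (limma adjusted p = 0.132) and passed without HDCKO mouse 1 (adjusted p = 0.0065) and with sample weights (adjusted p = 7.2e-05).

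Genes in and beside the cluster were compared with its members. Inside it, Cxcl15 was listed at 0 in all libraries but WT mouse 1, which had 0.0294 FPKM. On the high side, Mthfd2l, a gene of mitochondrial folate metabolism 25.1 kb away, had 1.73 ± 0.221 FPKM in HDCKO and 3.66 ± 0.315 FPKM in WT (a log2 change of -0.90, SE 0.15, limma adjusted p = 0.0057). Beyond it lie 3 genes for epidermal growth factor receptor ligands. Of these, Ereg had 0.0158 ± 0.0142 FPKM in HDCKO and 4.92 ± 1.06 FPKM in WT (a log2 change of -3.38), Areg had 0.0875 ± 0.152 FPKM in HDCKO and 1.64 ± 0.871 FPKM in WT (-1.82), and Btc had 0.596 ± 0.114 FPKM in HDCKO and 1.602 ± 0.631 FPKM in WT (-0.90; ± is SD, n = 3 each). The 0.5 FPKM added before logs understates the fall of such low-level genes. By mean FPKM, Ereg fell by a larger factor than Cxcl1, Cxcl5 or Pf4, and by a smaller one than Cxcl2, Cxcl3 or Ppbp. That factor is uncertain, since Ereg was close to 0 FPKM in HDCKO. On the low side, Alb, the serum albumin gene 282 kb away, had 1.85 ± 1.17 FPKM in HDCKO and 9.24 ± 3.47 FPKM in WT (a log2 change of -2.15). Ankrd17 (log2 change -0.68, limma adjusted p = 0.0355) passed, but Cox18 (-0.40, limma adjusted p = 0.0572) and the lncRNA Gm9958 (-0.08, limma adjusted p = 0.684) did not. Btc and Ankrd17 were lost under median-of-ratios scaling (adjusted p = 0.0863 and 0.244), and Cox18 and Gm9958 turned to positive values there. Ankrd17 was also lost without any 1 library other than HDCKO mouse 3 (adjusted p from 0.0796 to 0.115), and Btc without HDCKO mouse 1 or 2 or WT mouse 2 or 3 (adjusted p from 0.0576 to 0.0701). Cox18 passed without HDCKO mouse 3 (adjusted p = 0.0328).

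**Figure D5:**
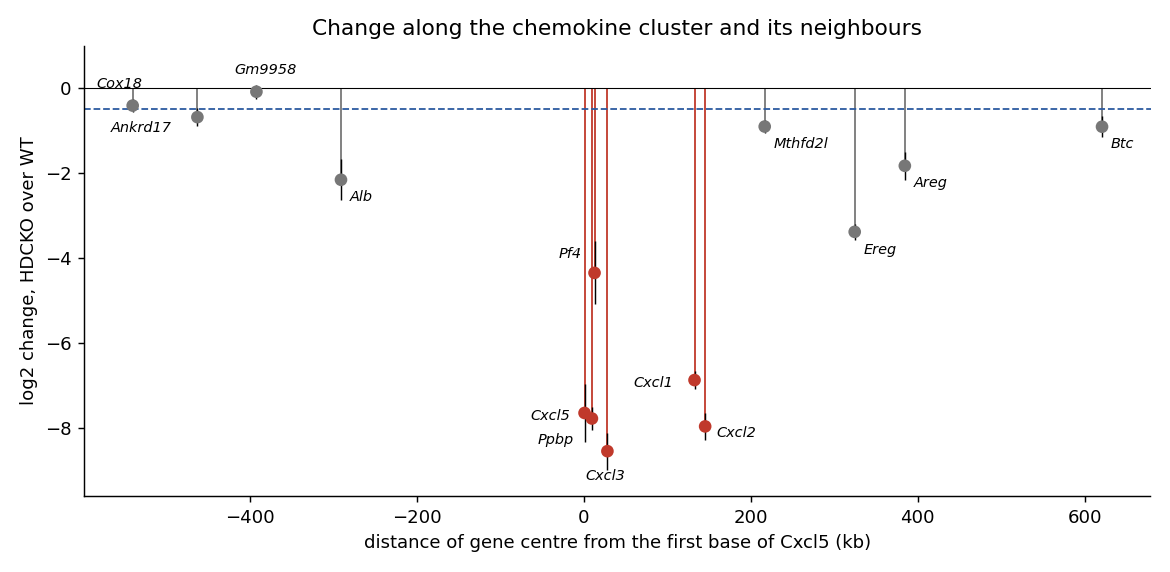
Log2 change, HDCKO over WT (bars: 1 SE), against distance in kb from the first base of Cxcl5, for the 6 chemokine genes (red) and the 4 nearest tested genes on either side (grey); the dashed line is the median of all genes. The 6 cluster genes lie between -8.54 and -4.34, and their neighbours between -3.38 and -0.08. The 0.5 FPKM added before logs shrinks the fall of low-level neighbours such as Ereg and Areg.

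Genes whose profile over the 6 libraries lay nearest to each of the 7 genes were found by Euclidean distance between centred log2 values, a description of 6 libraries in 2 groups. Nearest to Cxcl1 were Il6 (distance 1.12; 0.114 ± 0.0905 FPKM in HDCKO and 78.6 ± 37.9 FPKM in WT), Serpinb2 (1.23) and Ppbp (1.45). Cxcl2 and Cxcl3 were each other's nearest (1.18), followed by Ppbp (1.19) and the stefin gene Stfa2l1 (1.34) for Cxcl2, and by Stfa2l1 (1.44) and Cstdc4 (1.57) for Cxcl3. Cxcl5 lay nearest to Arg1 (1.44; 2.93 ± 4.06 FPKM in HDCKO and 629 ± 85.1 FPKM in WT), then Cxcl2 (1.56) and Il1b (1.68). Ppbp lay nearest to Cxcl2 (1.19), Cxcl1 (1.45) and Cxcl5 (1.77). The 3 nearest to Pf4 were the CC chemokine Ccl9 (0.75; 30.1 ± 21.4 FPKM in HDCKO and 410.0 ± 38.0 FPKM in WT), Emb (0.78) and the haem oxygenase Hmox1 (0.80; 60.3 ± 46.7 FPKM in HDCKO and 993 ± 215 FPKM in WT). Cxcr2 lay nearest to the arginase Arg2 (0.57; 0.731 ± 0.672 FPKM in HDCKO and 65.9 ± 50.5 FPKM in WT), Mcemp1 (0.72) and the colony-stimulating factor receptor Csf3r (0.81; 2.03 ± 1.79 FPKM in HDCKO and 132.6 ± 123 FPKM in WT; ± is SD, n = 3 each).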

How the data were processed

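Expression was measured by RNA sequencing, 1 library per mouse. The series' design text names FastQC 0.11.9, HISAT2 2.1.0 with HTSeq 0.11.2, and STAR 2.7.11b on GRCm39, and says that counts were turned into FPKM; it does not say which aligner's counts were used. The authors deposited FPKM values, whose columns carry the mouse names.

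Here limma-trend (limma 3.58.1, R 4.3.3) compared HDCKO with WT on log2(FPKM + 0.5) in the 13288 genes that averaged 0.5 FPKM or more, with no covariate, Benjamini-Hochberg adjustment over all of them and a threshold of 0.05. The procedure was tested on simulated data. Sums, shares and ratios were compared by exact permutation over libraries (SciPy 1.17.1). Whole fragments were recovered from the step between FPKM values within a tolerance of 0.06; Pf4 was left out because its step did not match its annotated length. Positions are from GENCODE (GRCm39) and promoters from RefSeq (GRCm38.p6).

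The 7 genes, the 10 gene lists, the motifs and the tests were chosen with earlier results of these data known. Named genes were the 7 genes, Hdc, up to 4 genes with the smallest p in each list, the 3 nearest profiles, and the genes in and next to the cluster. Genes under the filter, Grk3, Gp9, Itga2b, Clec1b, Rgs18, P2ry12, Mmrn1, P2rx1, Alox12, Trem2, Cx3cr1, C1qa, C1qb and C1qc were added after their values were seen. Alternatives were 2 pseudocounts, 2 filters, 3 scalings, sample weights, a replicate block and leaving out each library. The values of a platelet list member are not reported here.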

Additional observations from a re-analysis of the deposited data

How the results depend on the processing

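All 7 genes kept their direction and passed under each of the 15 alternatives (105 of 105 values; highest limma adjusted p = 0.0267, for Pf4 without HDCKO replicate 2). The log2 change of Cxcl2 was -9.02 with a pseudocount of 0.1 and -7.24 with a pseudocount of 1, that of Cxcl3 -9.46 and -7.88, and that of Cxcl5 -8.83 and -6.97; with sample weights Cxcl5 was at -8.48. Of all genes tested, 3457 were lower with median-of-ratios scaling and 2846 with muscle fibre and mitochondrial genes left out of the library sum, where 3772 were higher; leaving out 1 library gave 2507 (without HDCKO replicate 2) to 7288 (without HDCKO replicate 3). The causes were not tested.

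Signs turned for values that had not passed. The Cxcl5 share of the ligand sum (0.359 percentage points higher in HDCKO) ran from -16.9 to 9.91 with 1 library left out. The log2 ratio of Cxcl2 to Cxcl5 (-0.32) ran from -0.70 to 0.29, that of Cxcl2 to Ppbp (-0.19) from -0.64 to 0.10 and was 0.10 with a pseudocount of 1, that of Cxcl5 to Ppbp (0.13) from -0.42 to 0.56 and was -0.59 with a pseudocount of 0.1, and that of Pf4 to neutrophil markers (-0.39) from -1.10 to 0.14 and was 0.36 with a pseudocount of 0.1. Cox18 was at 0.10, 0.034 and 0.086 and Gm9958 at 0.24, 0.14 and 0.23 with median-of-ratios scaling, quantile normalization and without fibre and mitochondrial genes in the sum; Gm9958 ran from -0.15 to 0.013 with 1 library left out. Pseudocounts could not be applied to the shares, which were taken from FPKM as deposited.

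The mouse numbers were not shown to pair the libraries. Deviations of same-numbered HDCKO and WT libraries correlated at 0.122, 0.0666 and 0.138, and those of differently numbered libraries at -0.182 to 0.112. These values do not decide whether the libraries pair. With the number as a replicate block, Cxcl1, Cxcl2, Cxcl3, Cxcl5, Ppbp, Pf4 and Cxcr2 all passed (7 lower), and 5089 genes were lower and 2081 higher.

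Depth limits the HDCKO side: for Cxcr2 and the chemokines other than Pf4, HDCKO values rest on 2 to 235 fragments and WT values on 3836 to 23824.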
